A study of Mus musculus with 8 samples.

Results

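The ATAC-seq peaks assigned to 5 genes of steroid hormone signalling and the circadian clock were examined in mouse kidney tubuloids: Per1, Nr1d1, Nr3c2, Arrdc2 and Rhob. Members were taken by gene symbol from the deposited peak table, which gave 1 peak for each gene, so 5 of 6425 peaks. Tubuloids are epithelial cultures, here made from the kidney cortex of wildtype mice and embedded in Matrigel, and the labels give renal tubular epithelial cells as the cell type. The 4 libraries of the vehicle group came from tubuloids given vehicle, and the 4 of the myoglobin group from tubuloids given myoglobin, the haem protein that injured muscle releases, for 12 h. The series text names 4 mice, but no label ties a library to a mouse, so p-values rest only on spread between libraries. For each peak, that spread was drawn mainly from peaks of like level and only in part from its own values. Strain, age and sex are not given in the sources used here. The series title places the study in glucocorticoid action, but no label names a steroid treatment, so the only contrast was myoglobin against vehicle.

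Glucocorticoid and mineralocorticoid hormones act through nuclear receptors of the NR3C family, which bind DNA response elements and recruit coregulators. The mineralocorticoid receptor is best known in the distal nephron, where aldosterone drives sodium reabsorption. In the circadian clock, CLOCK and BMAL1 activate the Per and Cry genes through E-box elements, PER and CRY proteins repress that activation, and REV-ERB proteins repress Arntl, the gene of BMAL1. Per1 belongs to both systems, because glucocorticoids also induce it directly.

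ATAC-seq measures open chromatin by the places where Tn5 can cut and tag DNA, and each deposited value is the reads of a library in a peak, scaled between libraries by the authors and rounded. Column totals ran from 124415 to 126782. The pattern of whole numbers in each column gave an estimate of the reads behind it, 130568 to 200519 in vehicle and 67645 to 123453 in myoglobin libraries. Depth thus went with treatment, and its part in the results below cannot be told apart from that of myoglobin. Markers of kidney epithelium were present (Cdh1, Cdh16 and Epcam, 3 of 8 genes), with 1 of 9 proximal tubule genes (Cryl1) and 1 of 9 loop, distal tubule and collecting duct genes (Scnn1g). Defining proximal genes such as Lrp2 and Slc34a1 had no peak assigned, and neither did any of 5 endothelial, 5 fibroblast and pericyte, 5 immune or 5 podocyte genes.

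The peaks of 3 genes covered RefSeq promoter sequence, which is shown because it is the DNA that was measured as open. The sequences are from RefSeq on GRCm38.p6, the assembly that mm10 names, on the strand of the gene, and capitals mark CCAAT boxes on either strand (CCAAT or, reversed, ATTGG), to which the factor NF-Y binds. For Nr3c2 (chr8:76902080-76902329, plus strand) and Arrdc2 (chr8:70839721-70839970, minus strand) they are the 250 bases before the start site, all inside the peak. For Rhob (chr12:8500081-8500228, minus strand) the sequence is the whole peak.
Nr3c2: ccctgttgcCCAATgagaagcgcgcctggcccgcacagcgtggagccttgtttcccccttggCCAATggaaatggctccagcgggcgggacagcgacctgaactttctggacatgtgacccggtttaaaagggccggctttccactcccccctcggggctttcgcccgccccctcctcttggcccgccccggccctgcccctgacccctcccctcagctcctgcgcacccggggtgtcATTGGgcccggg
Arrdc2: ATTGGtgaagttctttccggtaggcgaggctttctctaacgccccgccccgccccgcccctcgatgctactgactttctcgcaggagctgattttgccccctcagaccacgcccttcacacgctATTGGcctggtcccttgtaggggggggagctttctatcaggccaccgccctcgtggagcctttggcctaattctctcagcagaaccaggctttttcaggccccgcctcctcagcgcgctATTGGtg
Rhob: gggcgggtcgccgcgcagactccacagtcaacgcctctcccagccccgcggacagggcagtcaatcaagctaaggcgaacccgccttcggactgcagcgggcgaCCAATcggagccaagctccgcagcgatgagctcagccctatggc

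These stretches were rich in G and C (68.4%, 60.4% and 67.6% for Nr3c2, Arrdc2 and Rhob). The Nr3c2 and Arrdc2 windows held 3 CCAAT boxes each and the Rhob peak held 1, with a second box in the Rhob window but outside the peak. Over all 32851 RefSeq windows of 250 upstream bases, 33.8% held a CCAAT box, and of the 4242 windows that touched a peak in the table, 48.7% did. The GC box GGGCGG, read on both strands, occurred 3 times in the Nr3c2 window, 4 times in that of Arrdc2 and 1 time in that of Rhob, against 32.7% of all windows and 73.9% of those touching a peak. Both motifs were thus common in open promoters, and the CCAAT box was marked after the sequences had been seen. Per1 has 2 windows in the RefSeq table and Nr1d1 has 1, and none touched the peak of its gene. The Per1 windows held 3 and 1 CCAAT boxes, and the Nr1d1 window none.

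The clock and steroid motifs were searched in the same 6 windows of the 5 genes. The single arm of the glucocorticoid element, AGAACA, on either strand, was in none of them, against 16.1% of all windows and 8.06% of those touching a peak. The full palindromic site, which is that arm, 3 bases and its reverse complement, was in none either, and 3 of all 32851 windows held it. The E-box CACGTG was found 1 time, in the upstream Per1 window, against 6.02% of all windows. It is shown in capitals with its surroundings because it is the element through which CLOCK and BMAL1 act, although it lay outside the Per1 peak (chr11:69098771-69098800, plus strand, GRCm38.p6).
Per1: agcacccaagtcCACGTGcagggatgtgtg

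That Per1 window also held the REV-ERB and ROR element core AGGTCA 1 time (14.0% of all windows, both strands), and the other 5 windows held none. The D-box TTANGTAA and the cAMP response element TGACGTCA were in none of the 6 windows (2.06% and 1.55% of all windows, both strands). A missing match says only that these letters are not in this window.

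Per1 encodes PERIOD1, a repressor of the clock loop. Its peak (ENSMUSG00000020893, chr11:69094851-69095248, 398 bp) ran from 366 bp before to 31 bp after the start site in the deposited table, with its centre 167 bp away. The RefSeq span of Per1 begins at 69095108, inside this peak. The start sites of both RefSeq promoter windows lie further into the gene, 3900 and 5102 bp from the peak centre, and the table assigned no second peak to Per1.

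Values at the Per1 peak were 56, 50, 59 and 52 in vehicle replicates 1 to 4. In myoglobin replicates 1 to 4 they were 41, 54, 50 and 45. The lowest values were in myoglobin replicates 1 and 4, while replicates 2 and 3 lay within the vehicle range, so the groups overlapped. The mean was 54.25 ± 4.03 in vehicle and 47.5 ± 5.69 in myoglobin (SD, n = 4 each), a ratio of 0.876. The log2 difference, myoglobin minus vehicle on the log2(value + 1) scale, was -0.19 ± 0.15 (SE; 95% interval -0.49 to 0.10), and it did not pass the test (limma, adjusted p = 0.816 over all peaks). In such bulk libraries, fewer cells with an open site and less opening per cell cannot be told apart.

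Nr1d1 encodes REV-ERB alpha, the haem-binding nuclear receptor that represses Arntl. Its peak (ENSMUSG00000020889, chr11:98773918-98774036) was the narrowest of the 5, at 119 bp. It lay inside the gene span, 1297 to 1415 bp downstream of the deposited start site, and outside the RefSeq promoter window; exons and introns were not used here.

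Vehicle values at the Nr1d1 peak were 4, 16, 7 and 15 in replicates 1 to 4. Myoglobin values were 11, 17, 13 and 10. Vehicle libraries split into a low pair (replicates 1 and 3) and a high pair (replicates 2 and 4). The myoglobin values lay across the upper part of the vehicle range, except replicate 2, at 17, which was just above it. The means were 10.5 ± 5.92 and 12.75 ± 3.10 (SD, n = 4 each), a ratio of 1.21. The log2 difference was 0.40 ± 0.33 (SE; 95% interval -0.26 to 1.06; limma, adjusted p = 0.839). On the log scale the low vehicle value of 4 weighs more than it does in the ratio of means. Leaving out vehicle replicate 1, which had the value of 4, took the difference to 0.06, and leaving out vehicle replicate 2 took it to 0.65. Variance among vehicle libraries here was 4.37 times the Poisson variance of its estimated reads, against 0.0998 to 1.51 times at the other 4 peaks in vehicle and 0.414 to 0.642 times at all 5 peaks in myoglobin. The limma interval at Nr1d1 reflects this wide spread only in part, because its standard error is drawn toward that of peaks of like level.

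Nr3c2 encodes the mineralocorticoid receptor, which also binds glucocorticoids. Its peak (ENSMUSG00000031618, chr8:76901802-76902383) was the widest of the 5, at 582 bp. The deposited table placed it 2651 bp from the start site, at 76899442. The RefSeq promoter table has a start site at 76902330 instead, inside the peak and 238 bp from its centre. By that annotation the peak covered an Nr3c2 promoter, within the longer gene span.

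At the Nr3c2 peak vehicle replicates 1 to 4 had values of 57, 54, 55 and 58. Myoglobin replicates 1 to 4 had 47, 50, 60 and 48. Vehicle values lay within 4 units, and 3 of the 4 myoglobin values were below all of them, but myoglobin replicate 3, the shallowest library, had the highest value of all 8. The means were 56.0 ± 1.83 and 51.25 ± 5.97 (SD, n = 4 each), and the log2 difference was -0.13 ± 0.14 (SE; 95% interval -0.42 to 0.15; limma, adjusted p = 0.899). Leaving out myoglobin replicate 3 gave -0.21, and leaving out both shallow libraries, myoglobin replicates 2 and 3, gave -0.23 (adjusted p at least 0.744 over all alternatives).

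Arrdc2 encodes an alpha-arrestin, a family of adaptors that bring ubiquitin ligases to membrane proteins, and is a known glucocorticoid-induced gene in muscle. Its peak (ENSMUSG00000002910, chr8:70839504-70840078, 575 bp) spanned the start site, from 358 bp before it to 216 bp after it. Deposited table and RefSeq gave the same start, at 70839720.

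The Arrdc2 peak had values of 64, 70, 67 and 56 in vehicle replicates 1 to 4, and the highest vehicle mean of the 5. Myoglobin values were 63, 57, 50 and 50. Vehicle replicate 4, at 56, lay below myoglobin replicates 1 and 2, so the groups overlapped. Means of 64.25 ± 6.02 and 55.0 ± 6.27 (SD, n = 4 each) gave a ratio of 0.856 and a log2 difference of -0.22 ± 0.14 (SE; 95% interval -0.50 to 0.05; limma, adjusted p = 0.734).

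Rhob encodes a small GTPase of endosomes and the actin cytoskeleton, an immediate early gene that stress and glucocorticoids are known to induce. Its peak (ENSMUSG00000054364, chr12:8500081-8500228) was 148 bp wide and lay wholly upstream, from 219 to 72 bp before the start site. Both annotations placed that start at 8500009.

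Vehicle values at the Rhob peak were 23, 16, 14 and 23. Myoglobin values were 16, 15, 15 and 10. Vehicle replicates 1 and 4 stood above all myoglobin libraries, vehicle replicates 2 and 3 among them, and myoglobin replicate 4 below all others. The means were 19.0 ± 4.69 and 14.0 ± 2.71 (SD, n = 4 each), the lowest ratio of the 5 at 0.737. The log2 difference was -0.40 ± 0.26 (SE; 95% interval -0.92 to 0.12; limma, adjusted p = 0.752), and it moved to -0.26 without myoglobin replicate 4 and to -0.53 without vehicle replicate 3.

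**Figure D1:**
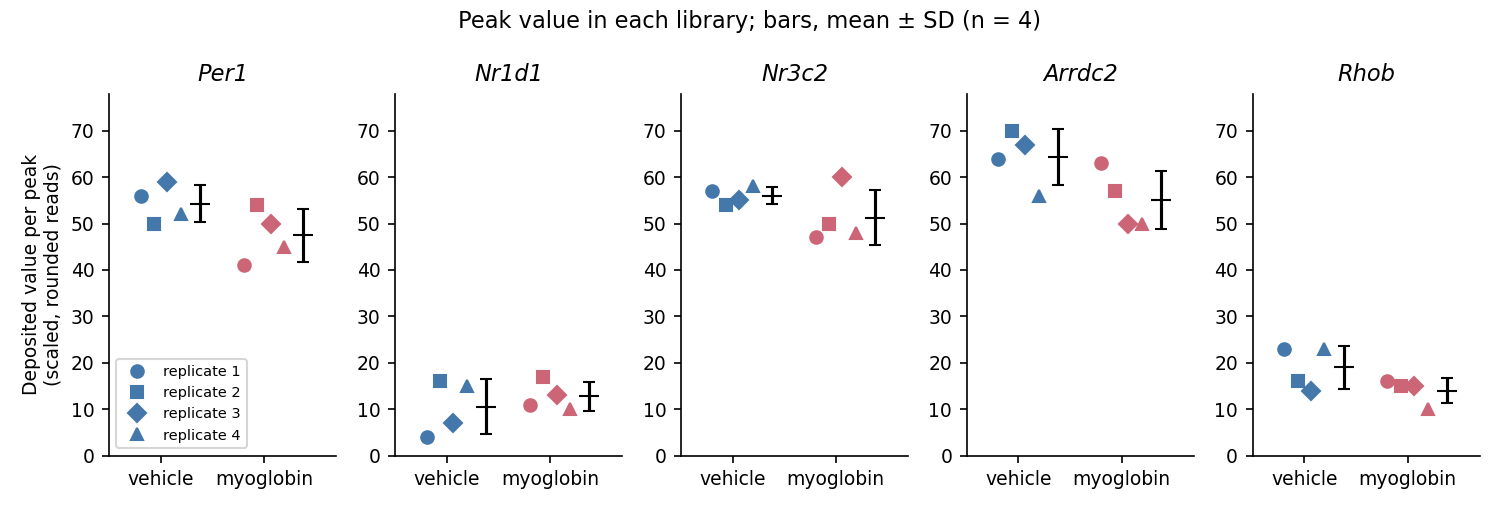
Deposited value (scaled, rounded reads) of each peak in each of the 4 vehicle (blue) and 4 myoglobin (red) libraries, with symbols for the replicate number and black bars for the mean ± SD. The groups overlap at every one of the 5 peaks, and Nr1d1 vehicle values spread from 4 to 16.

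Across the 5 peaks, none passed the test for myoglobin against vehicle (0 of 5 by limma at adjusted p under 0.05), where 0.249% of all 6425 peaks did (13 higher and 3 lower). At an unadjusted p under 0.05 there were also 0 of 5, against 7.60% of all peaks, and the lowest unadjusted p was 0.110, at Arrdc2. The ranges of the groups overlapped at each member, whereas they were separate at 3.04% of all peaks (0 of 5 members). Myoglobin means were below vehicle at 4 of 5 peaks, with Nr1d1 the exception, and 52.8% of all peaks had a negative difference. The 5 peaks had a median log2 difference of -0.19 and all peaks one of -0.02. Over the 247 peaks with a mean value of 50 or more, a class that holds Per1, Nr3c2 and Arrdc2, the median was -0.03 and 59.5% were negative.

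**Figure D2:**
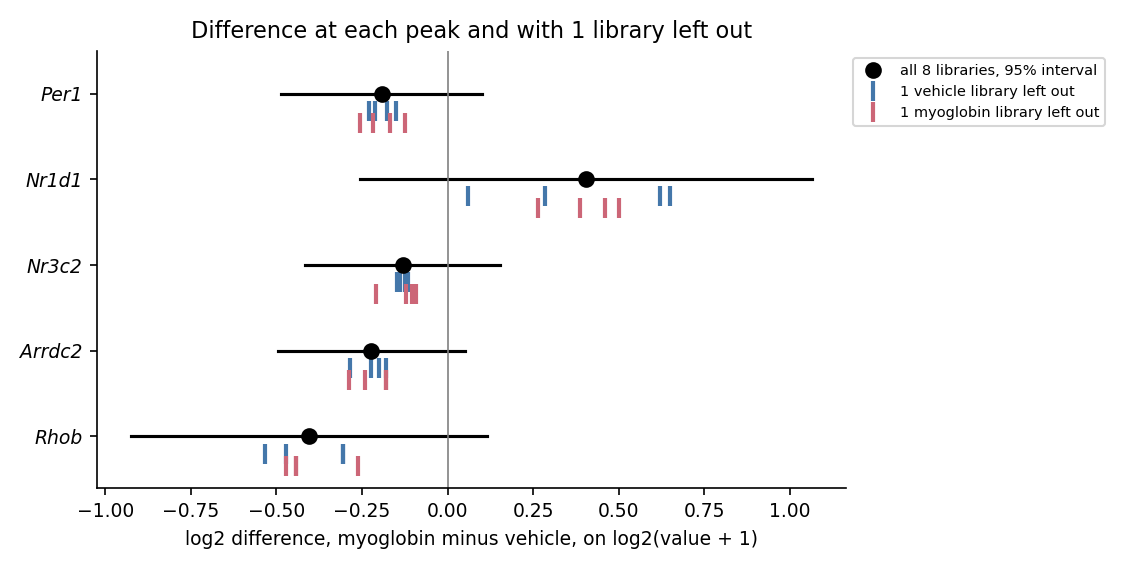
Log2 difference (myoglobin minus vehicle, log2(value + 1) scale) at each peak with its 95% limma interval (black), and the same difference with 1 vehicle (blue ticks) or 1 myoglobin library (red ticks) left out. All 5 intervals cross 0, and the Nr1d1 difference runs from 0.06 to 0.65 as vehicle libraries are left out.

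**Figure D3:**
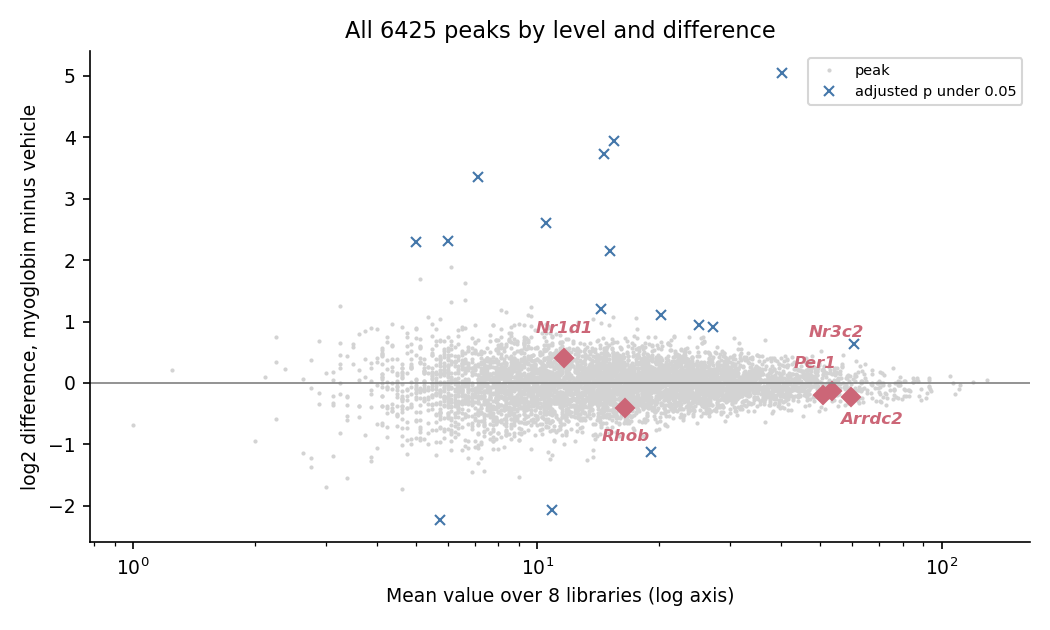
Mean value over the 8 libraries (log axis) against the log2 difference for all 6425 peaks (grey), with the 16 peaks at adjusted p under 0.05 as blue crosses and the 5 members as red diamonds. The members lie within the grey cloud, with Per1, Nr3c2 and Arrdc2 at its high end.

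The spread between libraries and the number of reads both bear on how small a difference could have been seen. Given their standard errors, the Arrdc2, Nr3c2 and Per1 peaks would have needed a log2 difference of about 0.56, 0.58 and 0.60 to pass, the Rhob peak 1.06 and the Nr1d1 peak 1.34. These limits follow mainly the level of each peak and less its own spread, because limma draws the standard error toward that of peaks of like level. Estimated reads behind the groups were 343 and 174 at Arrdc2 (vehicle and myoglobin), but only 59 and 39 at Nr1d1. From those reads, corrected for library depth, the myoglobin over vehicle ratio was 0.861 at Arrdc2 (95% exact binomial counting interval 0.713 to 1.04) and 1.12 at Nr1d1 (0.729 to 1.71). At Rhob it was 0.716 (0.489 to 1.03) from 43 myoglobin and 102 vehicle reads. Per1 had a ratio of 0.864 (0.703 to 1.06) and Nr3c2 one of 0.891 (0.730 to 1.08). These intervals cover counting error only, since amplified reads are not independent molecules, and each of them includes 1.

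Levels differed less between the genes once peak width was taken into account. Per 100 bp of peak, vehicle levels were 13.6 ± 1.01 at Per1, 12.8 ± 3.17 at Rhob, 11.2 ± 1.05 at Arrdc2, 9.62 ± 0.31 at Nr3c2 and 8.82 ± 4.97 at Nr1d1 (SD, n = 4). Each neighbouring pair in this order overlapped in the range over libraries, while the lowest Per1 level (12.6) was above the highest Arrdc2 level (12.2) and the highest Nr3c2 level (9.97). In myoglobin the levels per 100 bp were 11.9 ± 1.43 at Per1, 10.7 ± 2.60 at Nr1d1, 9.57 ± 1.09 at Arrdc2, 9.46 ± 1.83 at Rhob and 8.81 ± 1.02 at Nr3c2. Per1 thus had the highest mean per length in both groups, although Rhob reached 15.5 in vehicle and Nr1d1 14.3 in myoglobin, above the highest Per1 libraries (14.8 and 13.6). Over all 8 libraries it lay above 95.5% of all peaks on that scale. Rhob lay above 89.4%, Arrdc2 above 83.9%, Nr1d1 above 78.2% and Nr3c2 above 71.8% of all peaks, whose median was 7.78 per 100 bp.

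**Figure D4:**
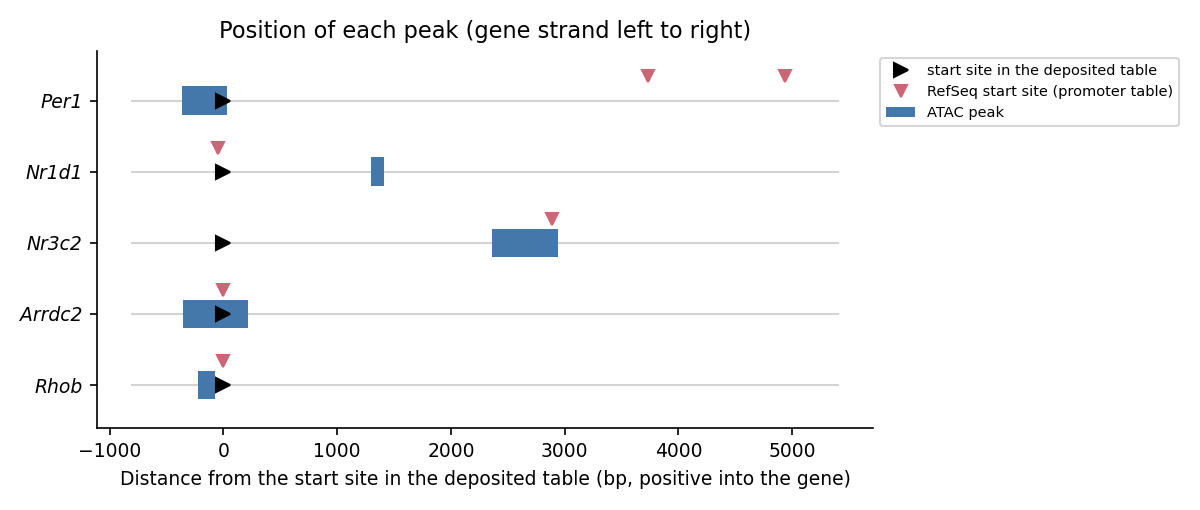
Peaks (blue bars, to scale) against the start site in the deposited table (black triangle, 0 bp), with start sites from the RefSeq promoter table in red and the gene running to the right. The Arrdc2 peak spans its start, the Per1 peak ends just past the deposited one, the Rhob peak ends 72 bp before it, the Nr3c2 peak covers the RefSeq start only, and the Nr1d1 peak lies inside the gene.

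Position set the members apart from one another. Per1, Arrdc2 and Rhob had peak centres 167, 71 and 146 bp from the deposited start, while Nr1d1 and Nr3c2 lay 1356 and 2651 bp away. A RefSeq promoter window of 300 bases was touched by 3 of the 5 peaks, at Nr3c2, Arrdc2 and Rhob, and by 53.1% of all peaks. Arrdc2, Nr3c2 and Per1 were wider than 98.3%, 98.4% and 90.1% of all peaks, and Rhob and Nr1d1 wider than 27.1% and 12.1%.

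Around the members, 11 other peaks lay within 100 kb, of which none passed by limma, against 0.249% of all peaks. Nr3c2 and Rhob had no other peak in that range, and Per1 had 1, near Aloxe3, with a log2 difference of -0.03. The 4 around Nr1d1 had differences from -0.11 to 0.13. Arrdc2 had 6, and 3 of them had lower means in myoglobin at an unadjusted p under 0.05, a level met by 7.60% of all peaks. The tallest of these, with no gene assigned (chr8:70792423-70793068, 46435 bp from the Arrdc2 peak), had values of 55, 59, 72 and 74 in vehicle and 55, 49, 48 and 49 in myoglobin (log2 difference -0.36 ± 0.14, SE; limma, adjusted p = 0.551). The remaining Arrdc2 neighbours were at 0.14 (near Rab3a), -0.13 (near Mpv17l2) and 0.09, the last being the nearest of all, at 42133 bp.

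The wider pathway was read from 8 gene lists with 159 genes in all, of which 62 had 68 peaks in the table. None of the 68 passed (0 by limma at adjusted p under 0.05, and 1, at Smarca4, with library weights), against 0.249% of all peaks. At an unadjusted p under 0.05 there were 6 (8.82%), near the 7.60% of all peaks, and the median log2 difference was 0.02. Groups did not overlap at 2 of the 68, Smarca4 and Birc3, a share near the 3.04% of all peaks. Each list below had 0 peaks called in either direction.

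The core clock loop had peaks at 11 of 22 genes. Of its 12 peaks 6 were above and 6 below 0, with a median of 0.03. The lowest unadjusted p values were at the repressor genes Cry2 and Per2. Cry2 had values of 28, 27, 25 and 28 in vehicle and 27, 17, 19 and 19 in myoglobin, so that myoglobin replicate 1 stayed at the vehicle level (log2 difference -0.40 ± 0.21, SE; limma, adjusted p = 0.679; -0.24 without both shallow libraries). Per2 had 21, 25, 25 and 18 in vehicle and 13, 15, 17 and 20 in myoglobin (-0.43 ± 0.24; limma, adjusted p = 0.686). The other period gene, Per3, was at -0.04. In the other direction, the second Cry gene, Cry1, was at 0.27 and Bhlhe40 at 0.26. The 2 peaks of Nr1d2, the paralogue of Nr1d1, differed in sign. The taller, 155 bp from the start site (vehicle mean 69), was at -0.24. The lower, 573 bp away (vehicle mean 16.75), was at 0.39. Arntl, the target of Nr1d1 and Nr1d2, was at 0.10. Kinases, ubiquitin ligases and modifiers of clock proteins had 10 peaks with a median of 0.09, among them Gsk3a, a kinase gene, at 0.46 and -0.31 in its 2 peaks, and Usp2, a deubiquitinase gene, at 0.34. The first of these Gsk3a values was 0.71 without myoglobin replicate 1 and 0.13 without both shallow libraries, and the Usp2 value was 0.15 without myoglobin replicate 3.

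Steroid and related receptors had peaks at 5 of 23 genes, with a median of -0.0049. Nr3c1, the glucocorticoid receptor gene, had no peak assigned. Thrb, a thyroid hormone receptor gene, was at 0.62 ± 0.30 (SE; limma, adjusted p = 0.633), with 21, 7, 13 and 6 in vehicle and 13, 17, 17 and 20 in myoglobin. It was at 0.93 without vehicle replicate 1 and 0.38 without vehicle replicate 4. Ppard was at -0.11. Receptor chaperones and hormone metabolism had 10 peaks with a median of 0.03, including the ubiquitin ligase gene Stub1 at 0.29 and -0.18 in its 2 peaks and the co-chaperone gene Stip1 at -0.21. Fkbp5, Hsd11b1 and Hsd11b2 had no peak assigned.

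Nuclear receptor coregulators had 7 peaks with a median of -0.06. Smarca4 encodes BRG1, the ATPase of the SWI/SNF remodelling complex that steroid receptors recruit. Its peak (chr9:21615971-21616163, 102 bp from the start site) had values of 12, 12, 6 and 9 in vehicle and 21, 18, 22 and 23 in myoglobin. All 4 myoglobin libraries were above all 4 vehicle libraries, with means of 21.0 ± 2.16 and 9.75 ± 2.87 (SD, n = 4 each). The log2 difference was 1.07 ± 0.28 (SE; 95% interval 0.52 to 1.62), and it missed the threshold (limma, adjusted p = 0.0701, range over the alternatives 0.0496 to 0.475). Sin3a, the gene of a corepressor scaffold, had a peak at -0.45 ± 0.21 (SE; limma, adjusted p = 0.632), with its other peak at -0.25.

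Glucocorticoid targets, the list with Per1, Arrdc2 and Rhob, had 16 peaks at 15 of 39 genes, 8 above and 8 below 0, with a median of -0.01. The members made up 3 of its 4 lowest peaks, at -0.19, -0.22 and -0.40, and Rhob was the lowest of the list. Birc3, an inhibitor of apoptosis, was the highest, at 0.67 ± 0.21 (SE; limma, adjusted p = 0.292), and Foxo3, a transcription factor gene of fasting and stress, was at 0.32. The Birc3 difference was 0.45 without vehicle replicate 4. Tsc22d3, Sgk1, Klf15 and Zbtb16, classical targets of the hormone, had no peak assigned.

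Mineralocorticoid targets had 7 peaks at 7 of 20 genes, with a median of 0.01. Nedd4l, the ubiquitin ligase that removes the epithelial sodium channel from the membrane, was at 0.51 ± 0.21 (SE; limma, adjusted p = 0.565), with 21, 24, 22 and 19 in vehicle and 33, 37, 24 and 31 in myoglobin. Scnn1g, a subunit of that channel, was at 0.44 ± 0.24 (SE; limma, adjusted p = 0.696). Alpha-arrestins and their ubiquitin ligases had 7 peaks with a median of -0.12. Besides Arrdc2, the arrestin genes stood at 0.20 (Arrdc1), -0.07 (Arrdc3), -0.12 (Arrdc4) and -0.38 (Txnip), and the ligase gene Wwp1 at -0.33.

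**Figure D5:**
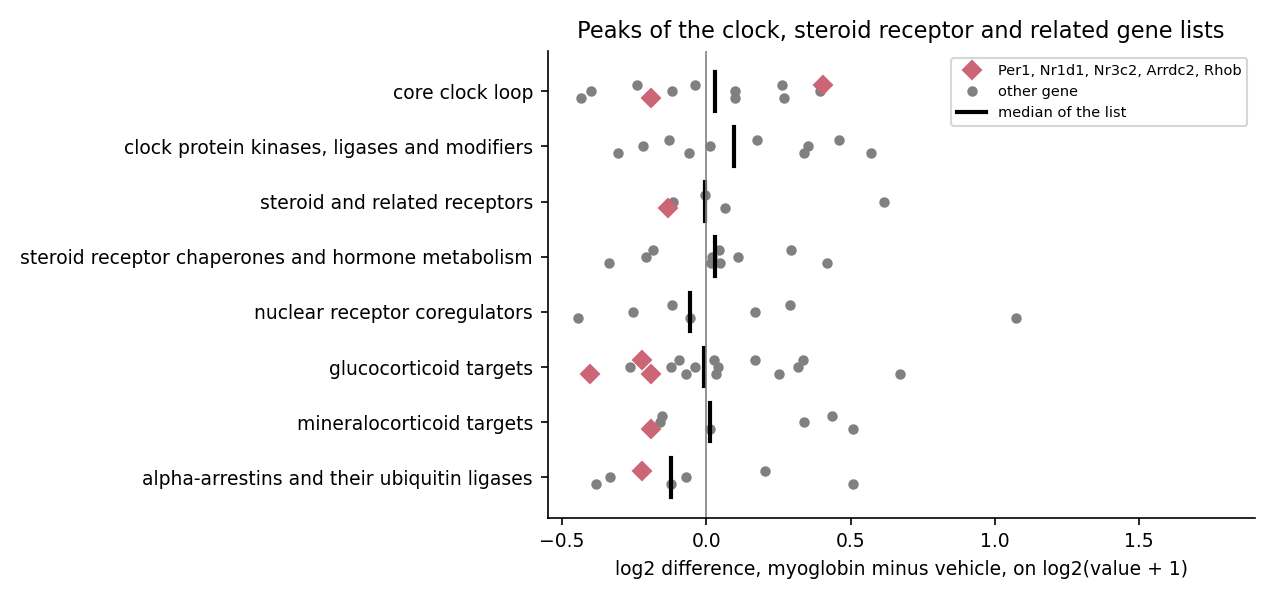
Log2 difference (myoglobin minus vehicle, log2(value + 1) scale) of every peak in 8 gene lists, with the median of each list as a black line and Per1, Nr1d1, Nr3c2, Arrdc2 and Rhob as red diamonds; a peak in several lists is drawn in each. Medians run from -0.12 to 0.09, and the point farthest to the right, at 1.07, is Smarca4.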

How the data were processed

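ATAC-seq values of 8 libraries were analysed, each from 50000 cells per the labels' protocols. Per the submitters' processing notes, Trimmomatic 0.39, STAR 2.7.10a, Picard 3.0.0, featureCounts, DESeq2 1.36.0 and the build mm10 were named; their roles, the peak caller and any Tn5 shift are not given in the sources used here. The deposited value is a score: the authors scaled reads per peak between libraries and rounded them, as the nearly equal totals and the uneven use of whole numbers within a column show. The deposited distance to the start site is in bp. As the values are not counts, no count test was run. The pattern of whole numbers in each column gave its scaling factor (maximum likelihood, tested on simulated libraries), and value over factor gave estimated reads.

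All 6425 peaks were fitted with limma 3.58.1 (R 4.3.3) on log2(value + 1), where the added 1 shrinks log2 changes of low peaks. The variance was modelled on level, all peaks were kept and p-values were adjusted by Benjamini-Hochberg at 0.05. The moderated variance had 78.5 prior and 6 residual degrees of freedom. Motifs were searched in RefSeq windows from 250 bases before the start site, with all 5 members matched by symbol. All list genes were found in the RefSeq gene table. A further gene list and the values of a neighbouring peak are not reported here. The genes, lists and tests were chosen with earlier results of these data known.

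Named were the members, the 2 non-member peaks lowest in p in each list, and peaks within 100 kb. For likeness, the 3 peaks nearest by root mean square difference of centred log2 values were taken, among named genes with a mean of 10 or more. Some list members and absent genes were also named after their values were seen. Alternatives were 2 other scalings, pseudocounts of 0.1 and 5, a mean of 10 or more, a block for replicate number, quality weights per library, each library left out, and both shallowest libraries left out.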

Additional observations from a re-analysis of the deposited data

Results flagged for a closer look

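Among 40 sets of 4 libraries at 20 peaks (the 5 members and the peaks named for their low p in each list), 4 sets had 1 library set apart by a wide gap under Dixon's criterion, where chance gives about 1 in 20 (2 sets). These are small whole numbers, for which the test is only rough. Most of the peaks were also picked by p in the same data, so the share given by chance is only a loose guide. At the Rhob peak myoglobin replicate 4 had a value of 10, against 15 to 16 in the other myoglobin libraries. At the Sin3a peak with the smaller p, vehicle replicate 1 had 19 against 32 to 34. At the Birc3 peak vehicle replicate 4 had 12 against 22 to 23. At the Scnn1g peak vehicle replicate 3 had 23 against 13 to 14.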

How the results depend on the processing

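None of the 5 members passed in any of the 16 alternatives, and each kept its sign in all of them. The block for replicate number and the filter for a mean of 10 or more could not change a difference. The kept sign was therefore fixed in advance in those fits. With 1 library left out the log2 difference ran from -0.26 to -0.13 at Per1, 0.06 to 0.65 at Nr1d1, -0.21 to -0.09 at Nr3c2, -0.29 to -0.18 at Arrdc2 and -0.53 to -0.26 at Rhob. Without both shallowest libraries it was -0.33, 0.17, -0.23, -0.19 and -0.52 in that order. Lowest adjusted p values over all alternatives were 0.604, 0.742, 0.744, 0.576 and 0.615. Same-numbered libraries did not deviate together (correlations across peaks of -0.0132 to 0.0259), and no label gives a pairing, so the replicate number was not taken as one. Values are small (median 16), so counting noise could hide a shared deviation, and this check cannot exclude pairing. With the number as a block the differences (-0.19, 0.40, -0.13, -0.22 and -0.40) could not change, because each number occurs once in each group. Only the standard errors could. The count of members called was 0 with that block, while 10 instead of 16 of all peaks were called. All peaks called numbered 9 with a pseudocount of 0.1, 7, 9 and 8 without vehicle replicates 1, 2 and 4, 21 with a pseudocount of 5, 22 with library weights and 19 without both shallowest libraries. Of the 68 list peaks, library weights called 1, at Smarca4 (log2 difference 1.05, adjusted p = 0.0496), and all other alternatives called 0. Differences changed sign at Ppard, to 0.11 without vehicle replicate 4 and 0.06 without myoglobin replicate 2 (range with 1 library left out -0.33 to 0.11), and at Wwp1, to 0.0040 without both shallowest libraries. With 1 library left out, Stub1 ran from 0.17 to 0.45, Stip1 reached -0.35 and Wwp1 ran from -0.51 to -0.17. The Nr1d1 and Rhob peaks had the fewest estimated reads and the widest intervals of the 5.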

Other observations

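By root mean square difference of centred log2 values over the 8 libraries, the peaks most like Per1 among 3417 compared were those of Ppp2r3a (0.0788), Myh14 (0.0871) and Zfp13 (0.0877), where the median peak was at 0.330. For Nr1d1 they were Gpr160, Myl12b and Ccar1 (0.327 to 0.332, median 0.655). Those of Nr3c2 were Gadd45a, a growth arrest and stress gene (0.0603), Atp8b1 (0.0692) and Raver1 (0.0754). Arrdc2 was most like Gtpbp6 (0.0482), Hoxb7 and Prdm4, and Rhob most like Cfap36 (0.155), Sesn3, a stress-induced sestrin gene, and Tob2. These are nearest values among many peaks, given as a description.

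RefSeq promoter windows were given for 19 of the 22 core clock genes, 25 windows in all. The E-box was in 6 of them, at Bhlhe41, Ciart, Cry1, Per1 and Tef. The D-box was in 3, at Per3, Rorb and Timeless, and the core AGGTCA in 4, at Clock, Nfil3, Nr1d2 and Per1. The glucocorticoid arm AGAACA was in 1, at Tef. Over all windows the shares were 6.02%, 2.06%, 14.0% and 16.1%.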
